A study of Mus musculus with 2 samples.

Results

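Transcripts of immunoglobulin chains and of B cell surface proteins were examined in lipopolysaccharide (LPS)-stimulated mouse peritoneal macrophages that lacked the phosphatase PAC1 and in wild-type macrophages. The 7 genes were Ighm, Igkc, Igkv6-23, Cd79a, Cd79b, Ms4a1 and Cd22, of 8886 genes named on the array. They were picked from earlier values of these same arrays, because immunoglobulin probe sets were lower and Cd79a was higher in the knockout. Their ratios between genotypes are therefore a description, with no test. Signals were lower for a probe set of Igkv6-23 (2.40-fold) and for another that names it with Igkc and other kappa genes (3.12-fold). They were also lower for Ighm alone (1.87-fold at most) and Ms4a1 (1.67-fold at most). Of the 16 probe sets for Ighm alone, 14 were too dim for a ratio. The other Igkc probe sets, Cd79b and Cd22 were within 1.5-fold of the wild-type signal. So was the brightest probe set naming Ighm, which also names other heavy-chain genes. Cd79a was at least 2.75-fold higher.

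Pac1-/- mice and their Pac1+/+ littermates, matched for age, gave the cells. PAC1 is the product of Dusp2, a dual-specificity phosphatase of MAP kinases. In both groups 2 ml of 3% thioglycollate, a sterile irritant, was injected into the peritoneum 4 days before lavage, and the cells were purified by adherence for 2 h and exposed to 100 ng/ml LPS for 6 h. The labels describe both preparations as 92 to 95% Mac-1 positive (Mac-1 is an integrin whose alpha chain is the product of Itgam). There was 1 Affymetrix array per genotype, so no difference has a replicate check, and no p-value or error is given. The number of mice behind each array, their strain, sex and age in weeks, and the design of the Pac1 deletion were not stated in the labels used. Unstimulated cells were not analysed here. The single Dusp2 probe set read 76.8 in knockout cells and 333.0 in wild-type cells (log2 ratio -2.12). The position of its probes relative to the deletion is not known here, so the labels are checked only in part.

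An antibody is built from heavy chains and light chains. Each chain joins a variable region, assembled in the B cell from gene segments, to a constant region. Ighm encodes the constant region of the mu heavy chain, which makes IgM, and Igkc that of the kappa light chain. Igkv6-23 is 1 of the variable segments of the kappa locus, and related segments share much of their sequence. On the B cell surface IgM is held in a complex with CD79A and CD79B, a pair of signalling chains that are needed together for the antigen receptor. Ms4a1 encodes CD20, a membrane protein of B cells, and Cd22 a sialic acid-binding receptor that restrains the antigen receptor. In the peritoneum B cells are normally resident, among them B-1 cells, which make natural IgM and can carry Mac-1.

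The array held 30 probe sets for the 7 genes. In 22 of them a member was the only gene named, and in 8 it was named together with other immunoglobulin genes. Igkc was named only in such joint probe sets. Values are MAS5 signals, linear intensities in arbitrary units, and levels are compared between the arrays for the same probe set only. A floor was set at 36.4, the median over both arrays' signals together, and a probe set was eligible if at least 1 of its signals exceeded it. Of the 30 probe sets 14 were eligible, 12 of them above the floor on both arrays, and 16 were below it on both. Most of the joint probe sets (6 of 8), and 8 of the 22 for 1 gene, carry a name suffix that marks shared probes or possible cross-hybridisation.

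Among the eligible member probe sets, 2 of 14 were 2-fold or more lower in the knockout and 1 of 14 was 2-fold or more higher. Over all 6838 eligible probe sets of the array, 1.11% were 2-fold or more lower and 1.18% were 2-fold or more higher. Since the members were chosen on this contrast, nothing is read from the difference between these shares. In bulk RNA, a difference in the number of B cells and one in transcripts per cell cannot be told apart. At 1.5-fold, 6 of the 14 member probe sets were lower and 1 was higher, beside 5.91% lower and 6.55% higher over all eligible probe sets. Ratios were below 0 for 7 member probe sets and above 0 for 7, with a median log2 ratio of -0.03 against 0.02 for all eligible probe sets. Under scaling of the arrays to equal medians, 32.2% of the 2-fold calls over all probe sets were on the higher side, against 51.6% with equal trimmed means. That scaling put the median log2 ratio of all eligible probe sets at -0.09.

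**Figure D1:**
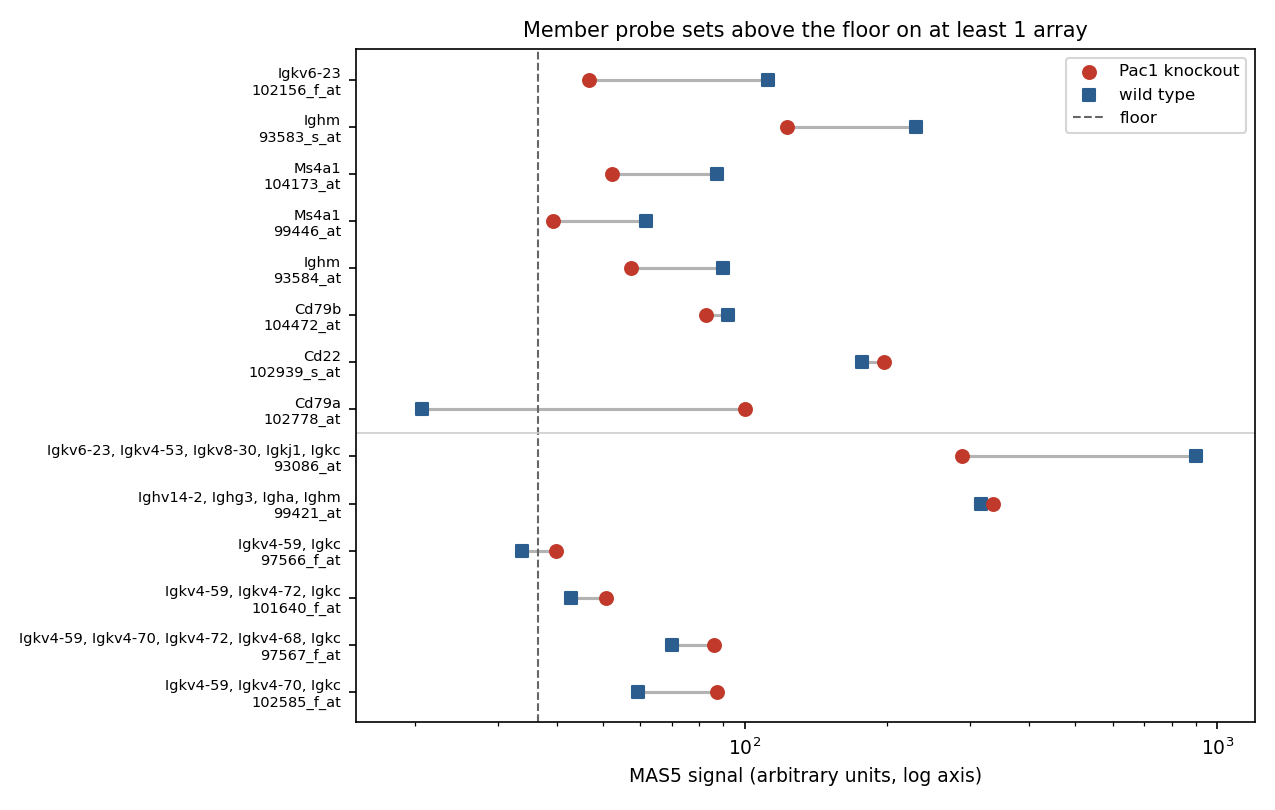
MAS5 signals (x axis, log scale, arbitrary units) of the 14 eligible member probe sets on the Pac1 knockout array (circles) and the wild-type array (squares), with 1 array each and the floor of 36.4 dashed. Above the thin line a member is the only gene named, and below it several are; the widest gaps are those of the joint Igkv6-23 and Igkc probe set (288.1 in the knockout, 899.9 in the wild type) and of Cd79a (100.2 in the knockout, 20.7 in the wild type).

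The largest gap among the light-chain probe sets belonged to 93086_at, which names Igkv6-23, Igkv4-53, Igkv8-30, the joining segment Igkj1 and Igkc. Its signal was 288.1 in knockout cells and 899.9 in wild-type cells, 3.12-fold lower (log2 ratio -1.64). Its name carries no cross-hybridisation suffix. Among the 1877 eligible probe sets whose brighter signal was 300 or more, 0.426% were 2-fold or more lower, 8 probe sets with this one included, and 0.16% were 2-fold or more higher. The 5th to 95th percentile of the log2 ratio in that range was -0.48 to 0.42.

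Igkv6-23 also had a probe set of its own, 102156_f_at. It read 46.8 in knockout cells and 112.1 in wild-type cells, 2.40-fold lower (log2 ratio -1.26). It is a member of a probe set family with shared sequence. Both probe sets that name Igkv6-23 were thus lower in the knockout by more than 2-fold, and they are 2 readings of the same pair of RNA preparations, not replicates. Among eligible probe sets with a brighter signal of 100 to 300, 1.72% were 2-fold or more lower.

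The other 4 probe sets that name Igkc gave a different picture. All 4 also name the variable segment Igkv4-59, alone or with Igkv4-68, Igkv4-70 and Igkv4-72. The probe set 102585_f_at read 87.2 in knockout cells and 59.3 in wild-type cells (log2 ratio 0.56). For 97567_f_at the signals were 85.9 in knockout cells and 70.0 in wild-type cells (0.30). For 101640_f_at they were 50.9 in knockout cells and 42.8 in wild-type cells (0.25). The last of them, 97566_f_at, was at 39.9 in the knockout and below the floor, at 33.7, in the wild type, at least 1.10-fold higher. The lower light-chain signal in the knockout was therefore seen in the probe sets that name Igkv6-23 and in 0 of the 4 Igkc probe sets that name Igkv4-59. All 4 carry the family suffix, and the annotation does not say which part of the kappa transcript each probe set reads.

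Ighm was named alone by 16 probe sets, of which 2 were above the floor. The first, 93583_s_at, read 122.9 in knockout cells and 229.9 in wild-type cells, 1.87-fold lower (log2 ratio -0.90). The other, 93584_at, read 57.3 in knockout cells and 89.7 in wild-type cells (-0.65). Both were lower in the knockout and short of 2-fold, though 93583_s_at passed it (-1.02) under scaling to equal medians. Just inside and just outside the 2-fold limit among the member probe sets were thus Igkv6-23, at 2.40-fold, and Ighm, at 1.87-fold.

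The remaining 14 Ighm probe sets were below the floor on both arrays. Their values ran from 1.0 to 30.5 in the knockout and from 0.3 to 36.3 in the wild type. The signal was higher in the knockout in 10 of the 14 and lower in 4, and at this brightness the sign carries no fold. The highest of the wild-type values, 36.3 for 100362_f_at, lay just under the floor, with 9.1 in the knockout. Summed over the 16 probe sets, Ighm signals came to 328.3 in knockout cells and 430.0 in wild-type cells. This sum mixes the 2 eligible probe sets, both lower in the knockout, with the 14 under the floor, so it is not read as an Ighm level. The annotation does not say which part of the heavy-chain transcript each of the 16 reads.

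Of 3 probe sets that name Ighm with other heavy-chain genes, 1 was above the floor. This was 99421_at, which names Ighv14-2, Ighg3, Igha and Ighm, where Ighg3 and Igha are constant regions of IgG3 and IgA. It read 335.6 in knockout cells and 315.5 in wild-type cells (log2 ratio 0.09, and -0.03 under scaling to equal medians). Its arrays were thus near equality, whereas 93583_s_at, which also names Ighm, was 1.87-fold lower in the knockout. The other 2 were below the floor, at most 26.5 in knockout cells and 14.8 in wild-type cells.

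**Figure D2:**
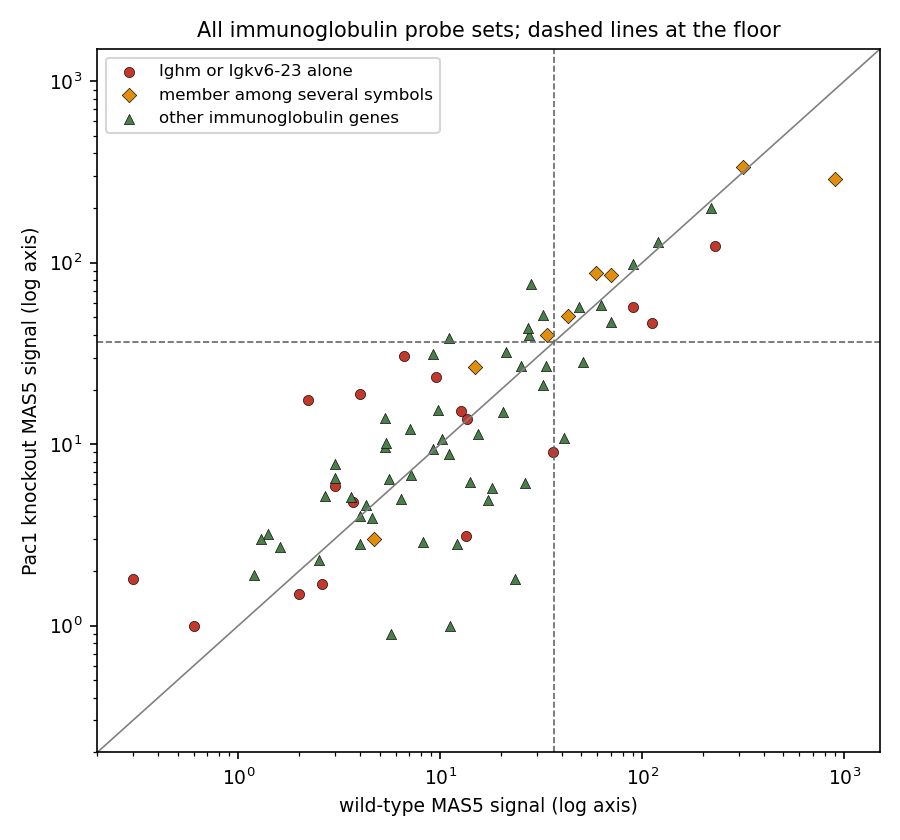
Knockout signal (y axis) against wild-type signal (x axis), both MAS5 values on log axes, for all 78 immunoglobulin probe sets, with dashed lines at the floor of 36.4 and a solid line of equal signals. The points show bare signals. With signals raised to the floor, 2 of the 22 eligible ones were 2-fold or more lower in the knockout (both name Igkv6-23). Another 1, for the lambda gene Iglc1, was 2-fold or more higher, while the other probe set naming Iglc1 was below the floor on both arrays. Over all eligible probe sets of the array, 1.11% were 2-fold or more lower and 1.18% were 2-fold or more higher.

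The 53 other immunoglobulin probe sets, which name none of the 7 genes, set these values in context. Only 13 were eligible, and with signals raised to the floor 0 of those were 2-fold or more lower in the knockout, while 1 was 2-fold or more higher. Over all eligible probe sets of the array the shares were 1.11% and 1.18%. With so few probe sets, no contrast with the members is read from these counts. Their median log2 ratio was 0.13, with 5 below 0 and 8 above. The higher one was 93639_r_at for Iglc1, a lambda light-chain constant region, at 76.7 in knockout cells and 28.0 in wild-type cells, at least 2.11-fold higher. Its suffix is among those counted here as possible cross-hybridisation. The other probe set that names Iglc1, 93638_s_at, also names Iglv1. It was below the floor, at 2.7 in knockout cells and 1.6 in wild-type cells. Of the heavy-chain probe sets, the one for Ighd, the delta chain of IgD that naive B cells carry beside IgM, read 47.3 in knockout cells and 70.1 in wild-type cells (-0.57). Another, 102152_f_at, which the annotation gives as Igh-VS107, read 200.6 in knockout cells and 219.8 in wild-type cells (-0.13). The other 2 of the 4 eligible heavy-chain probe sets were higher in the knockout. For Ighv5-12, 98765_f_at read 130.6 in knockout cells and 119.0 in wild-type cells (0.13). For Ighg3, 102721_at read 51.8 in knockout cells and 32.2, below the floor, in wild-type cells, at least 1.42-fold higher.

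Of the 8 eligible kappa probe sets that name no member, 3 were above the floor on both arrays, and these were near equality. Igkv4-91 read 98.2 in knockout cells and 89.5 in wild-type cells (0.13), Igkv4-70 read 58.8 in knockout cells and 62.4 in wild-type cells (-0.09), and 96963_s_at for Igkv8-30 read 56.8 in knockout cells and 48.4 in wild-type cells (0.23). Igkv8-30 is also among the genes of 93086_at, whose signal was lower. The other 5 had 1 signal below the floor, so their folds are bounds, and 0 of these bounds reached 2-fold. The probe set 96975_at, which names Igk and Igkv1-117, read 28.3 in knockout cells and 51.1 in wild-type cells, at least 1.40-fold lower. For 101616_at, which names Igkv16-104 and Igk, the signals were 10.8 in knockout cells and 40.8 in wild-type cells, at least 1.12-fold lower. In the other direction, 99396_at for Igkv9-120 read 38.4 in knockout cells and 11.1 in wild-type cells, at least 1.05-fold higher. The bare signals of 101616_at and 99396_at differ by more than 2-fold (log2 ratios of -1.92 and 1.79), with the higher signal of each just above the floor. Igkv4-68 and Igkv8-19 were at least 1.10-fold and 1.20-fold higher. Summed over all 53 other probe sets, signals came to 1240.8 in knockout cells and 1239.8 in wild-type cells.

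The antigen receptor's signalling chains gave unlike values. Cd79a, read by 1 probe set (102778_at), was at 100.2 in the knockout and below the floor, at 20.7, in the wild type. Against the floor it was at least 2.75-fold higher in the knockout, and the bare signals differ by a log2 ratio of 2.28. Its partner Cd79b, also read by 1 probe set, was at 82.8 in knockout cells and 91.9 in wild-type cells (-0.15). Among eligible probe sets with a brighter signal of 100 to 300, 1.67% were 2-fold or more higher. With the floor at the 75th percentile of all signals (129.9), Cd79a was below it on both arrays and had no ratio.

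Ms4a1, the CD20 gene, had 2 probe sets with like ratios. The first, 104173_at, read 52.2 in knockout cells and 87.4 in wild-type cells (log2 ratio -0.74). The second, 99446_at, read 39.2 in knockout cells and 61.8 in wild-type cells (-0.66). Both were lower in the knockout, and both knockout signals lay little above the floor. Cd22, read by 1 probe set with an _s_at suffix, was at 196.8 in knockout cells and 176.8 in wild-type cells (0.15). The arrays differed there by 1.11-fold.

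How far ratios of 1 gene vary between its probe sets was described over the 444 genes with exactly 2 single-gene probe sets whose signals exceeded the floor on each array. Their ratios differed by a median of 0.30 and by 0.76 at the 90th percentile, on the log2 scale. The gaps between the 2 Ms4a1 and between the 2 eligible Ighm probe sets were smaller than that median. Probe sets that name a member with other genes, which that description leaves out, lay farther apart. Those naming Igkc ran from -1.64 to 0.56. Of those naming Ighm, 93583_s_at was at -0.90 and the joint 99421_at at 0.09. These figures describe probes within a pair of arrays, and say nothing of other mice.

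**Figure D3:**
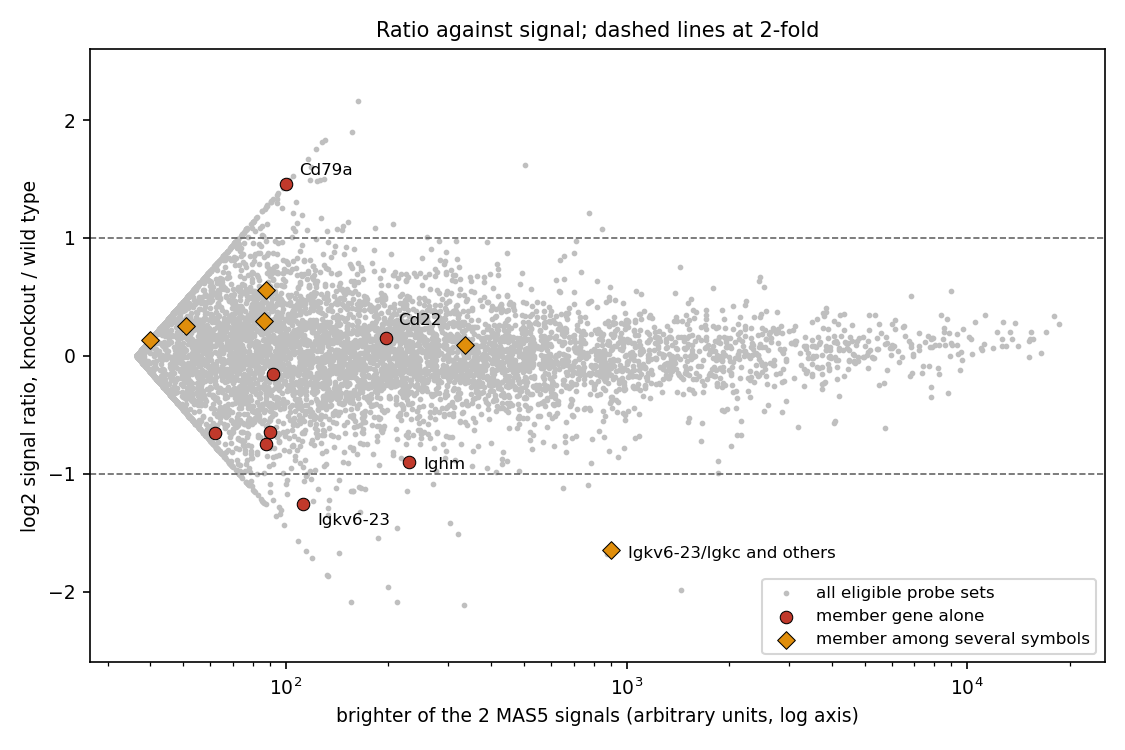
Log2 signal ratio of knockout over wild type (y axis) against the brighter of the paired MAS5 signals (x axis, log scale, arbitrary units) for all 6838 eligible probe sets (grey), member genes alone (circles) and members among several symbols (diamonds), with dashed lines at 2-fold. Points along the slanted left edges have 1 signal at the floor, so their ratio is a bound, as for Cd79a. The joint Igkv6-23 and Igkc probe set (-1.64) lies below most probe sets of like signal. The members were chosen on this contrast, so their positions are not a test.

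Among eligible probe sets with a brighter signal under 100, where 8 of the 14 member probe sets fall, 1.13% were 2-fold or more lower and 1.5% were 2-fold or more higher. The 5th to 95th percentile of the ratio there was -0.67 to 0.73, against -0.66 to 0.69 for signals of 100 to 300. The ratio of the first Ms4a1 probe set lay below the range for signals under 100, and those of the second and of 93584_at for Ighm lay inside it. The ratio of the brighter Ighm probe set, 93583_s_at (-0.90), lay below the range for signals of 100 to 300. Since the members were chosen on this contrast, nothing is read from where any of them lies relative to these ranges.

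Other genes of the B lineage were followed in 6 lists with 76 genes in all, of which 57 had a probe set of their own. Of these 57 genes, 35 were eligible and 22 stayed under the floor on each array. None of the 35 was 2-fold or more lower in the knockout (0 of 35) and 1 of 35 was 2-fold or more higher, against 1.07% and 1.23% of the 5119 eligible genes of the array. Their median log2 ratio was 0.13, against 0.02 for all eligible genes, with 13 below 0 and 22 above. The lists include many genes that macrophages use as well, such as the kinase genes Syk and Btk.

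B cell surface markers were mostly below the floor, with 8 of the 12 measured genes under it on both arrays. These included Cr2, the complement receptor 2 gene, at 11.0 in knockout cells and 3.3 in wild-type cells. Fcer2a, which encodes the IgE receptor CD23, read 23.8 in knockout cells and 27.2 in wild-type cells, and the follicle-homing receptor gene Cxcr5 read 12.2 in knockout cells and 6.5 in wild-type cells. The 1 gene past 2-fold was Cd72, a B cell coreceptor gene, at 79.5 in knockout cells and 37.4 in wild-type cells (log2 ratio 1.09), a wild-type signal close to the floor. It was short of 2-fold under scaling to equal medians. The lowest ratio was that of Ltb, the lymphotoxin beta gene, at 39.4 in knockout cells and 66.2 in wild-type cells (-0.75).

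Genes of antigen receptor signalling were all eligible, 13 of 13, with 0 past 2-fold. Their median log2 ratio was 0.02, and -0.10 under scaling to equal medians. The adaptor gene Grb2 had the highest ratio, at 417.8 in knockout cells and 243.5 in wild-type cells (0.78), and Lat2 the lowest, at 1647.7 in knockout cells and 1881.3 in wild-type cells (-0.19). Blk, a Src-family kinase gene more restricted to B cells, read 53.6 in knockout cells and 54.2 in wild-type cells (-0.02), while a second Blk probe set stayed under the floor. Syk, the kinase that binds the phosphorylated CD79 chains, read 2128.9 in knockout cells and 2101.9 in wild-type cells (0.02).

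Among transcription factors 10 of 12 measured genes were eligible, 0 of them past 2-fold. Their median log2 ratio was 0.39, and 0.27 under scaling to equal medians. Lef1 was highest, at 306.2 in knockout cells and 185.0 in wild-type cells (0.73). The lowest was Pax5, the factor that holds B cells to their identity, at 40.2 in knockout cells and 55.7 in wild-type cells (-0.47). Ebf1, which acts with Pax5 in early B cells and on the Cd79a promoter, read 8.2 in knockout cells and 3.2 in wild-type cells, below the floor. The B cell coactivator gene Pou2af1 read 17.3 in knockout cells and 15.5 in wild-type cells, also below it.

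Plasma cell genes, 4 eligible of 7 measured, had 0 past 2-fold. Their ratios ran from -0.08 for Sdc1, the CD138 gene, at 299.3 in knockout cells and 317.2 in wild-type cells, up to Cd27, at least 1.41-fold higher (51.2 in knockout cells and 30.3, below the floor, in wild-type cells). The joining chain gene Jchain, whose protein links IgM and IgA into polymers, was below the floor at 29.5 in knockout cells and 12.2 in wild-type cells. Of 6 genes of B cell precursors only Rag1, a recombinase gene, was eligible, at 43.3 in knockout cells and 66.2 in wild-type cells (-0.61). Of the genes associated with peritoneal B-1 cells 3 of 7 were eligible, between Il10 at 170.0 in knockout cells and 191.9 in wild-type cells (-0.17) and Cd9 at 3115.9 in knockout cells and 2856.8 in wild-type cells (0.13). Cd5, which marks the B-1a subset, was below the floor at 4.0 in knockout cells and 8.7 in wild-type cells.

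**Figure D4:**
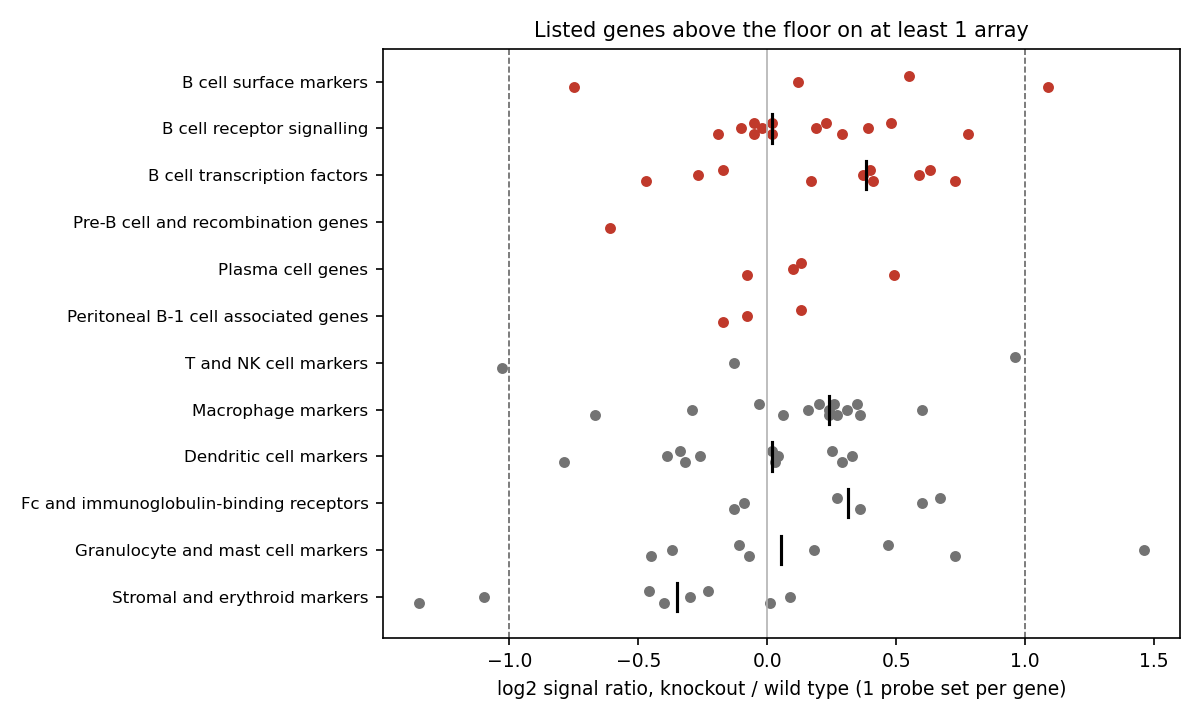
Log2 signal ratio of knockout over wild type (x axis) for the eligible genes of each list, 1 probe set per gene, with B-lineage lists in red, other cell types and receptors in grey, black bars at the median of lists with at least 5 eligible genes, and dashed lines at 2-fold. Of the 35 eligible B-lineage genes only Cd72 lies past 2-fold (1.09), and the macrophage markers centre on 0.24.

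Markers of the labelled cell type were present throughout. All 14 macrophage markers were above the floor, 0 were 2-fold apart, and their summed signal was 53610.8 in knockout cells and 46554.0 in wild-type cells. Their median log2 ratio was 0.24, and 0.12 under scaling to equal medians. The lowest was the scavenger receptor gene Msr1, at -0.67 (1365.5 in knockout cells and 2170.8 in wild-type cells). The highest was Fcer1g, at 0.60 (250.5 in knockout cells and 165.1 in wild-type cells). The 6 member genes with a probe set of their own, read from 1 probe set each, summed to 601.7 in knockout cells and 718.8 in wild-type cells. That sum leaves out Igkc and the joint probe sets. The sums of the 2 gene groups are not compared with each other, since levels are compared for the same probe set only.

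Some single markers of other cells that a lavage can hold were also past 2-fold between the arrays, and their part in the results above was not tested. No listed marker was at 0 on either array. T and NK cell markers had 3 eligible genes of 15 and summed to 1139.0 in knockout cells and 1184.0 in wild-type cells. The 3 were Cd4, at least 2.05-fold lower (32.8 in knockout cells and 74.5 in wild-type cells), Il7r (-0.13) and Zap70, at least 1.94-fold higher (70.6 in knockout cells and 25.5 in wild-type cells). The T cell receptor genes Cd3e, Cd3d and Cd3g were all below the floor, at most 21.3 in knockout cells and 15.9 in wild-type cells.

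Granulocyte and mast cell markers summed to 1757.4 in knockout cells and 1856.4 in wild-type cells, with 8 of 14 eligible. Hdc was lowest (-0.45), and 1 was 2-fold higher, Prg2, an eosinophil granule protein gene (100.1 in knockout cells and 16.0 in wild-type cells, at least 2.75-fold). Of all eligible genes of the array 1.23% were 2-fold or more higher. Prg2 had 2 probe sets, and only the one with the higher mean signal was read. Stromal and erythroid markers summed to 3087.4 in knockout cells and 3444.4 in wild-type cells. Of these sums, Eng alone gave 2120.9 in knockout cells and 2111.4 in wild-type cells. The list median was -0.35 (-0.04 with the floor at the 75th percentile), and Col1a2 was highest (0.09). Of 8 eligible genes 2 were 2-fold or more lower, against 1.07% of all eligible genes of the array. The 2 were the actin gene Acta2 (52.2 in knockout cells and 133.3 in wild-type cells, 2.55-fold) and the globin gene Hba-a1 (12.8 in knockout cells and 78.0 in wild-type cells, at least 2.14-fold). Dendritic cell markers summed to 5893.6 in knockout cells and 5570.7 in wild-type cells, with 11 of 11 eligible, 0 past 2-fold and a median of 0.02 (-0.10 under scaling to equal medians). They ran from Ciita, the class II activator gene (at least 1.73-fold lower), to Cd83 (0.33).

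Receptors that bind immunoglobulin were followed because macrophages take up antibody through them. Of 9 measured genes 6 were eligible and 0 were 2-fold apart, with a median log2 ratio of 0.31 (0.20 under scaling to equal medians). The highest was Fcgr3, at 58.0 in the knockout and below the floor, at 29.6, in the wild type, at least 1.59-fold higher. The lowest was Pigr, which encodes the receptor that carries polymeric IgA and IgM across epithelia, at 138.3 in knockout cells and 151.3 in wild-type cells (-0.13). Fcgr1, the high-affinity IgG receptor gene, read 3770.5 in knockout cells and 2938.8 in wild-type cells (0.36).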

How the data were processed

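RNA was measured on 2 arrays, 1 per genotype, and samples were grouped by the titles in the labels. The deposited values are linear intensities, 1 per probe set, computed by the authors with MAS5 per the submitters' processing notes, which give no version or settings. MAS5 combines perfect-match and mismatch probes, and its ratios spread most at low signal. Per the labels' protocols, 500 to 1000 ng of total RNA was amplified from a poly(T) primer, which weights the 3′ ends of transcripts. Detection calls were not used here, and depth does not apply to arrays; their number limits the precision.

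Of 12654 probe sets, 10298 had 1 gene symbol in the platform annotation, 363 had several and 1993 were not named there, and 66 control probe sets were left out. Signals were scaled to an equal 2% trimmed mean on both arrays (150.0 on both as deposited), raised to the floor of 36.4, and compared as log2 knockout over wild type. A probe set with 1 signal under the floor gives a bound, written "at least". The 8220 genes with a single-symbol probe set were read from the one with the highest mean signal, and list medians need 5 eligible genes. A call means 2-fold or more, and no test was possible with 1 array per group. The calling steps were tested on simulated data with large changes placed in bright probe sets only. That test does not cover dim signals or small changes, such as those of most member probe sets. Python 3.11.15, numpy 2.4.6, pandas 2.3.3 and statsmodels 0.14.6 were used.

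The members and the 13 lists were chosen with earlier results of these data known. The naming rule took all member probe sets, immunoglobulin probe sets with several symbols, Dusp2 and, per list, genes past 2-fold and the lowest and highest ratio; those under the floor are given as ranges or counts. Other immunoglobulin probe sets with 1 symbol, further list genes printed with values and the description of genes with 2 probe sets were chosen after the values were seen. With 2 arrays a pattern is a single ratio, so no gene was named as most alike. Alternatives covered scaling, floor, fold, cross-hybridising probe sets and the rule for several probe sets. Genome coordinates are not printed, because the files name no build.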

Additional observations from a re-analysis of the deposited data

How the results depend on the processing

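With 1 array per genotype no setting gives a replicate check. No paired analysis was possible because each group holds 1 array. Among 95 recomputed log2 ratios of the 14 eligible member probe sets, 93 moved by less than 0.30, the median gap between probe sets of 1 gene. The exceptions were Cd79a with a lower floor or none (2.28 in both cases, against 1.46). Many of the 95 could not move. A lower floor, or leaving out other probe sets, cannot change a ratio whose signals both exceed the floor, as for 12 of the 14. The deposited signals already had equal trimmed means, so using them unscaled changed little. The joint Igkv6-23 and Igkc probe set ranged from -1.76 to -1.63 and remained 2-fold lower under every alternative scaling, floor and probe set choice run. Both its signals, 288.1 in knockout cells and 899.9 in wild-type cells, exceeded every floor used, so only the scaling could move its ratio. The counts of member probe sets followed the floor, which also changes how many probe sets are eligible. With the floor at the 25th percentile of signals 3 were 2-fold lower and 3 were higher, with it at the 75th percentile 1 was lower and 0 were higher, and with no floor 4 were lower and 5 were higher. Without cross-hybridising probe sets 1 was 2-fold lower, since the Igkv6-23 probe set drops out. At 1.5-fold, 6 of the 14 member probe sets were lower. Over all probe sets, those 2-fold lower and higher numbered 76 and 81 of 6838 eligible ones. They were 573 and 753 of 10310 with the 25th percentile floor, and 10 and 3 of 3333 with the 75th. With no floor they were 1234 and 1546 of 12547. At 1.5-fold, 404 and 448 of 6838 passed, and scaling to equal medians gave 116 and 55 of 6831. Without cross-hybridising probe sets they were 54 and 65 of 5478. B-lineage list genes 2-fold lower and higher numbered 3 and 3 with the 25th percentile floor and 4 and 5 with none, against 0 and 1, and 0 were higher with the 75th percentile floor or under scaling to equal medians. Signals near or under the floor limit these counts. Ratios of probe sets that an alternative removed or left under its floor were not computed.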
